A study of Mus musculus with 22 samples.

Results

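The 10 genes described here are direct response genes of TGF-beta or BMP signalling, followed through all 8 groups of a co-culture study of mouse cells. They are Tgfbi, Id1, Id2, Id3, Smad6, Smad7, Skil, Tgif1, Klf10 and Pmepa1, chosen by symbol, and all 10 are among the 32544 symbols of both count tables. Mammary cells carried the MMTV-HER2 transgene, which places HER2 under the mammary tumor virus promoter, and came from early lesions (EL, listed as primary epithelium) or from primary tumors (PT). Wildtype FVB mice gave the alveolar macrophages, which are phagocytes that live in the air spaces of the lung. All cultures stood on Matrigel, a basement membrane gel, in medium with horse serum, hydrocortisone, insulin and EGF. After 7 days the co-cultures were sorted by FACS into macrophages and mammary cells. The sources used here do not give the sort gate.

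The EL experiment held macrophages co-cultured with EL cells (2 libraries), macrophages alone (2), EL cells co-cultured with macrophages (3) and EL cells alone (3). The PT experiment held macrophages co-cultured with PT cells, macrophages alone, PT cells co-cultured with macrophages and PT cells alone, with 3 libraries each. All are bulk RNA sequencing libraries, in which fewer cells of a type and less RNA per cell cannot be told apart. The labels call the replicates biological but do not tie them to animals, so p-values measure the spread between these libraries.

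TGF-beta ligands act through receptor kinases that phosphorylate SMAD2 and SMAD3, and BMP ligands through receptors that phosphorylate SMAD1, SMAD5 and SMAD9. Both sets of SMADs enter the nucleus with SMAD4, bind short DNA boxes and act on target genes, many of which feed back on the pathway. Alveolar macrophages are known to depend on TGF-beta for their development and upkeep, and in mammary epithelium TGF-beta is known as a brake on growth. Tgfbi encodes a secreted matrix protein that binds integrins and collagens. Id1, Id2 and Id3 encode helix-loop-helix proteins that lack a DNA-binding region and hold back basic helix-loop-helix factors, and Id1 and Id3 are textbook BMP targets. Smad6 and Smad7 encode inhibitory SMADs, Smad6 mainly of the BMP branch and Smad7 of both. Skil, also known as SnoN, and Tgif1 encode corepressors that bind the SMADs. Klf10 encodes a zinc-finger factor found as an early TGF-beta response gene, and Pmepa1 a membrane protein that sequesters receptor-activated SMADs.

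The start-site windows of 4 members on which the results below turn are shown, with the SMAD boxes found in them in capitals. They are RefSeq sequences of GRCm38.p6, each with 250 bases before and 50 after the annotated start, written 5′ to 3′ on the gene's strand. A window was at hand for 5 of the 10 members. The letters searched on both strands were GTCTAGAC (its own reverse complement), CAGAC with its reverse complement GTCTG, then GGCGCC (also its own reverse complement), and GGAGCC with its reverse complement GGCTCC; none is contained in another.
Tgfbi, chr13:56609336-56609635, plus strand: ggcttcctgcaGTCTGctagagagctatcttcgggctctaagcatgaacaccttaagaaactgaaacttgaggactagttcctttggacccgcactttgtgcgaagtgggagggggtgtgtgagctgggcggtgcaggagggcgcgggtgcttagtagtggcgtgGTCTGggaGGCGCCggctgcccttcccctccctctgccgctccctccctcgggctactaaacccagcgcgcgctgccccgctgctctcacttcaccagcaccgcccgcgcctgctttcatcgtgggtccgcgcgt
Id2, chr12:25096043-25096342, minus strand: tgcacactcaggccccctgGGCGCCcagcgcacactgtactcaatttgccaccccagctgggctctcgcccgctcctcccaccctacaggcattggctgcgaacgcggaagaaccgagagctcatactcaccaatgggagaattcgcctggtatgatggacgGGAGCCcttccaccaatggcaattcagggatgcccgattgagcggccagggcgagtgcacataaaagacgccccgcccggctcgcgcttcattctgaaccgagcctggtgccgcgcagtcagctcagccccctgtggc
Id3, chr4:136143572-136143871, plus strand: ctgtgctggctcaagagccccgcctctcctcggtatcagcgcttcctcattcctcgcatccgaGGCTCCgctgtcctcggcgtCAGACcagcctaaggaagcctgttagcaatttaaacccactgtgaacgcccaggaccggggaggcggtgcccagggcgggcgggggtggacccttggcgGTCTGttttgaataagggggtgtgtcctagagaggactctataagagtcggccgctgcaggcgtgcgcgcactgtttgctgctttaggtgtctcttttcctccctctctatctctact
Smad6, chr9:64022010-64022309, minus strand: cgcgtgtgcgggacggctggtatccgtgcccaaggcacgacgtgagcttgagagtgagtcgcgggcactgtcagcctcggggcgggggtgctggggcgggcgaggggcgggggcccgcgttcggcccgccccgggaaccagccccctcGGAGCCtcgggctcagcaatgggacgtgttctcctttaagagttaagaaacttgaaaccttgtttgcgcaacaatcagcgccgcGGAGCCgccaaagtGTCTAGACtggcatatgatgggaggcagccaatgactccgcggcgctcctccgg

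The Smad6 window holds the palindrome GTCTAGAC 1 time, with its first base at position -4 from the start, and GGAGCC 2 times. Of all 32851 windows of this length, 0.213% hold that palindrome. Tgfbi and Id3 each hold CAGAC 2 times, which 49.6% of all windows hold at least 1 time. GGCGCC, held by 11.9% of windows, is in those of Tgfbi and Id2, and GGAGCC, held by 30.8%, is in those of Id2, Id3 and Smad6. Among the 5 windows listed for Tgif1, CAGAC is in 3 and GGAGCC in 1. None of the 10 genes overlaps another gene in the GENCODE M21 annotation of GRCm38. The annotation and strand setting used for the counts are not given. Of those without a window, Id1 lies at chr2:152736251-152737410 (plus strand), Pmepa1 at chr2:173224458-173276533 (minus), Skil at chr3:31095058-31122577 (plus) and Klf10 at chr15:38291463-38300706 (minus). The motif matches describe the letters of the windows and are not measured binding.

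Each library had 19.7 to 43.7 M counts. In the 6 macrophage libraries of the PT experiment genes of the mitochondrial genome made up 65.7 to 78.6% of the counts, against 2.86 to 3.53% in the other 16, and genes other than these and Grip2 had 4.65 to 6.03 M counts there. Levels are given as TMM-normalized counts per 1000000 (CPM) with factors computed over all 22 libraries, so they compare groups, and their overall height depends on those factors. Leaving out the mitochondrially encoded genes and Grip2 raised the members' group means by 50.8 to 56.8%. Summed over 10 alveolar macrophage markers, macrophages stood at 5971 to 23713 CPM and mammary cells at 121 to 318 CPM. Summed over 9 luminal markers, macrophages stood at 32.2 to 246 CPM and mammary cells at 2225 to 2795 CPM, so the sorted cells carry the markers of their labels. Macrophages of both experiments held more luminal transcripts after co-culture, and their values are given beside the results they touch.

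Without co-culture most of the 10 genes differed by cell type. Pmepa1 had 15.7 and 13.8 CPM in macrophages alone of the EL experiment, against 638, 701 and 662 CPM in EL cells alone. In the PT experiment it had 4.37, 4.97 and 4.50 CPM in macrophages alone, against 984, 908 and 838 CPM in PT cells alone. The feedback gene Pmepa1 was thus far above its macrophage level in every mammary library. The inhibitory SMAD genes followed the same split. Smad7 had 2.55 and 2.48 CPM in macrophages alone of the EL experiment and 4.06, 6.88 and 4.74 CPM in those of the PT experiment, against 32.6, 30.6 and 34.4 CPM in EL cells alone and 15.8, 20.3 and 25.1 CPM in PT cells alone. Smad6 was at 0.283 to 1.01 CPM in the 5 libraries of macrophages alone and at 10.2 to 11.1 CPM in the 6 libraries of mammary cells alone. No macrophage library reached a mammary library for Pmepa1, Smad6, Smad7, Skil or Id3. For Id3 the gap was narrow, from 2.41 CPM in the highest macrophage library to 3.22 CPM in the lowest mammary library.

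**Figure D1:**
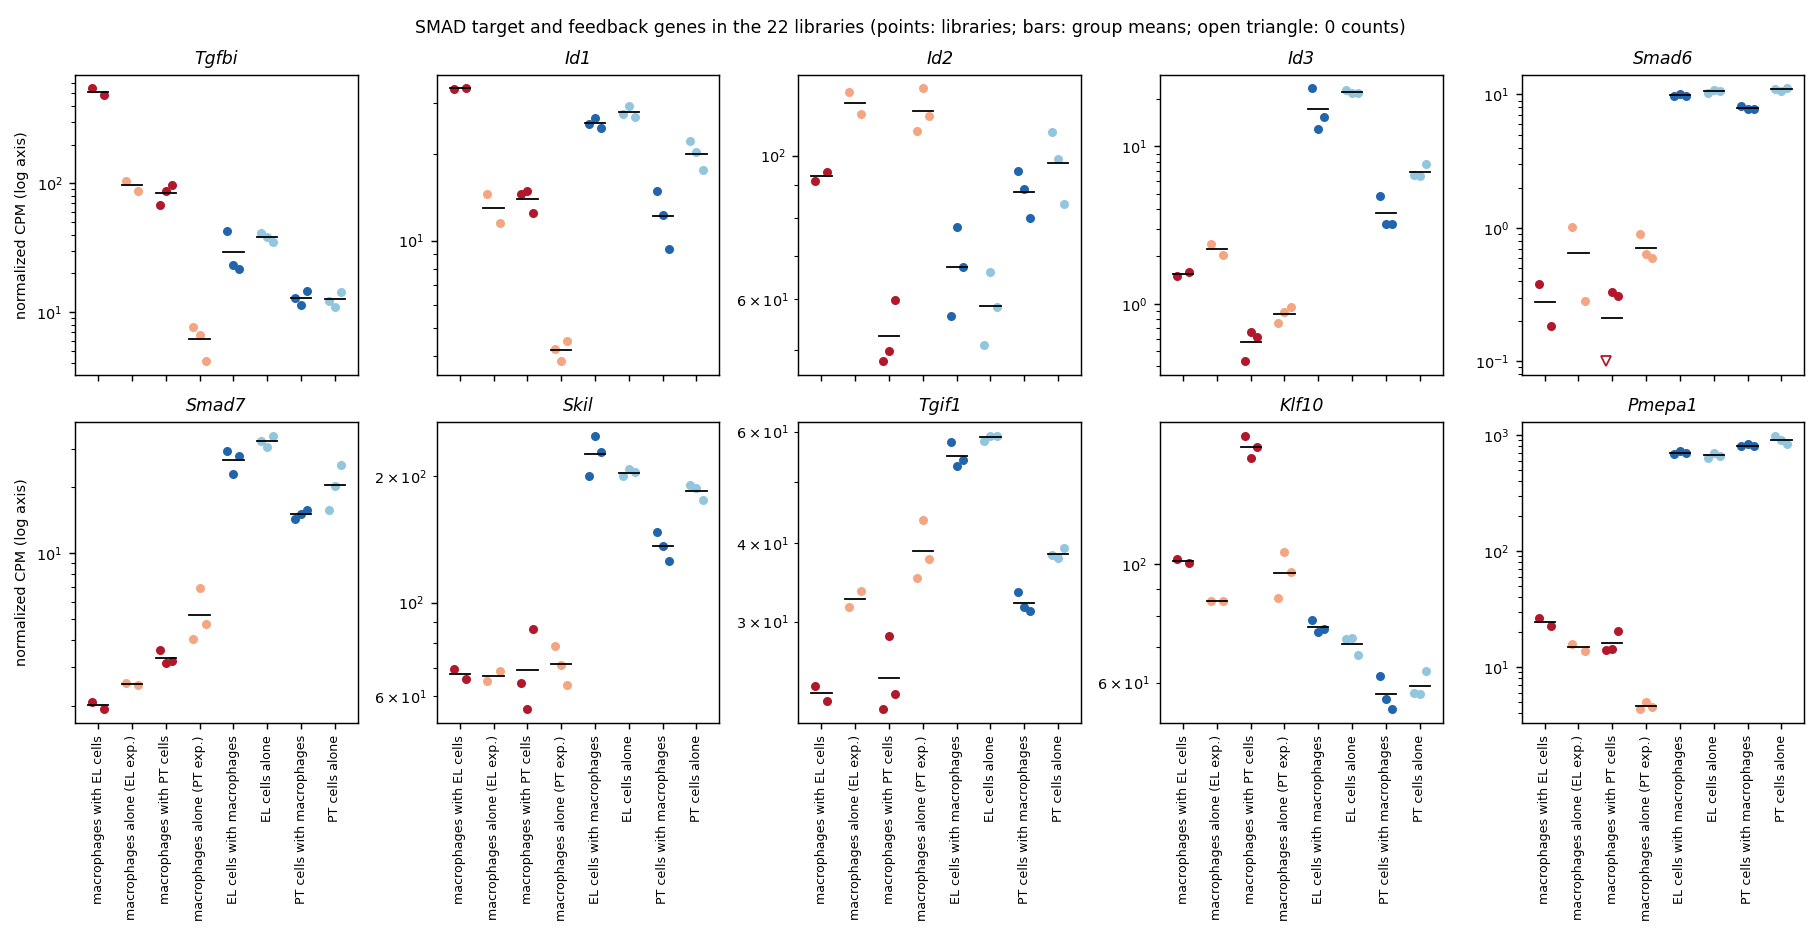
Level of each of the 10 genes in the 22 libraries, in normalized CPM on a log axis whose range differs between panels. Points are libraries and bars group means, with macrophages in red (dark with mammary cells, light alone) and mammary cells in blue (dark with macrophages, light alone), and an open triangle stands for a library with 0 counts. Pmepa1, Smad6, Smad7, Skil and Id3 are higher in every mammary library than in any macrophage library. Tgfbi is highest in macrophages with EL cells, at 483 and 548 CPM.

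Set against mammary cells of the same experiment in mono-culture, macrophages differed in most members, as they did in most genes. In the EL experiment 10 of 10 members passed an adjusted p of 0.05 (edgeR's quasi-likelihood test, with p-values adjusted by Benjamini and Hochberg's method across the genes of that comparison), where 77.8% of the genes tested passed. There 3 were higher in macrophages, Tgfbi (log2 fold change 1.42 ± 0.09 SE), Id2 (1.12 ± 0.10) and Klf10 (0.34 ± 0.05), and 7 were lower, against 37% of genes higher and 40.7% lower. In the PT experiment 9 of 10 passed, where 78.9% of genes did, with Klf10 (0.86 ± 0.09) and Id2 (0.43 ± 0.11) higher in macrophages and 7 lower, against 36.7% of genes higher and 42.3% lower. The lowest relative to mammary cells in both was Pmepa1, at -5.43 ± 0.09 in the EL and -7.46 ± 0.14 in the PT experiment. The matrix gene Tgfbi took opposite sides, higher in macrophages of the EL experiment and lower in those of the PT experiment (-0.88 ± 0.22); the difference between the experiments was not tested. Tgif1 was lower in macrophages of the EL experiment (-0.78 ± 0.06) and did not pass in the PT experiment (0.18 ± 0.10, edgeR adjusted p = 0.116). The median over all genes tested in the PT experiment was -0.14, so that small differences there lie close to a general shift, and Id2 did not pass without the filter on low counts (0.24, edgeR adjusted p = 0.0647).

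Per kilobase of exon, which allows genes to be set side by side, Pmepa1 led the members in all 4 mammary groups, at 136 to 185 CPM per kb. Id2 led in macrophages alone, at 49.5 CPM per kb in the EL and 48.1 in the PT experiment. In macrophages with EL cells Tgfbi led at 136.7 CPM per kb, and in macrophages with PT cells Klf10 led at 39.7. The leading member of macrophages thus differed between mono-culture and co-culture in both experiments.

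Macrophages co-cultured with EL cells had more Tgfbi, Id1, Klf10 and Pmepa1 and less Id2 and Tgif1 than macrophages alone. That is 4 members higher and 2 lower of 10 tested, against 18.3% of all genes called, 9.11% higher and 9.19% lower. Tgfbi had 548 and 483 CPM with EL cells, against 105 and 88.0 CPM alone. Both co-cultured libraries lay far above both mono-cultured ones, a log2 fold change of 2.41 ± 0.10 (edgeR adjusted p = 1.19e-06). With a crossed replicate block, chosen after seeing the data, the change was as large (2.41) and did not pass (edgeR adjusted p = 0.0660). Id1 had 33.5 and 33.7 CPM with EL cells, against 14.5 and 11.5 CPM alone. The co-cultured pair lay close together and above both controls, and it rose by 1.37 ± 0.11 (edgeR adjusted p = 8.99e-06). Pmepa1 had 26.5 and 22.5 CPM with EL cells, against 15.7 and 13.8 CPM alone (0.73 ± 0.10, edgeR adjusted p = 0.000604), with no overlap. Klf10 had 102 and 100 CPM with EL cells, against 85.2 and 85.3 CPM alone. That is the smallest rise among the 4, at 0.24 ± 0.06 (edgeR adjusted p = 0.0187), and it did not pass in 2 of the 4 fits that leave out 1 library: without mono-cultured replicate 2 (0.0577) and without co-cultured replicate 1 (0.0976), both edgeR adjusted p-values. With the replicate number as a block it did not pass either (0.24, edgeR adjusted p = 0.0736).

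Both falling members encode negative regulators of transcription. Id2 had 91.3 and 94.4 CPM in macrophages with EL cells, against 125 and 116 CPM alone. It fell in both libraries relative to both controls, by 0.38 on the log2 scale with an SE of 0.07 (edgeR adjusted p = 0.00235), and did not pass when all 4 groups of the experiment were fitted together (-0.34, edgeR adjusted p = 0.169). Tgif1 had 23.7 and 22.5 CPM with EL cells, against 31.6 and 33.5 CPM alone (-0.50 ± 0.08, edgeR adjusted p = 0.000883). The groups did not overlap. Skil had 69.7 and 65.8 CPM with EL cells, against 65.3 and 68.7 CPM alone, a difference of 0.01 ± 0.07 with overlapping groups. The low genes Id3 (-0.53 ± 0.25), Smad6 (-1.15 ± 0.65) and Smad7 (-0.33 ± 0.21) did not pass. Their levels were 1.49 and 1.60 CPM for Id3 in macrophages with EL cells, against 2.41 and 2.05 CPM alone, and 0.183 to 0.379 CPM for Smad6, against 0.283 to 1.01 CPM alone. With 1 library left out the value of Smad6 ran widely: -1.85 without mono-cultured replicate 2, the 1 setting in which it passed (edgeR adjusted p = 0.0147), and -0.0059 without mono-cultured replicate 1 (0.997).

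Macrophages co-cultured with PT cells changed in the same 6 genes and the same directions. Of 8 members tested there, 4 were higher and 2 lower, against 30.6% of all genes called, 15.8% higher and 14.8% lower. The share of mitochondrial counts moved with the groups, at 74.9 to 78.6% with PT cells, against 65.7 to 72.7% alone. The same 6 members passed in a fit without mitochondrially encoded genes and Grip2; the part of RNA quality in the changes was not tested. Tgfbi had 68.2, 86.6 and 96.8 CPM with PT cells, against 7.68, 6.63 and 4.15 CPM alone. Every co-cultured library was far above every control, a rise of 3.85 ± 0.21 (edgeR adjusted p = 3.37e-07). Id1 had 14.5, 14.8 and 12.4 CPM with PT cells, against 4.22, 3.82 and 4.50 CPM alone (1.79 ± 0.20, edgeR adjusted p = 1.9e-05). Pmepa1 had 14.1, 14.3 and 20.4 CPM with PT cells, against 4.37, 4.97 and 4.50 CPM alone (1.88 ± 0.21, edgeR adjusted p = 2.04e-05). The groups were apart for both genes. Klf10 had 174, 158 and 166 CPM with PT cells, against 86.6, 105 and 96.5 CPM alone. Its co-cultured libraries all stood above the controls, and it rose by 0.85 ± 0.09 (edgeR adjusted p = 1.45e-05).

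Id2 had 48.1, 49.9 and 59.7 CPM in macrophages with PT cells, against 109, 127 and 115 CPM alone. It fell by 1.09 on the log2 scale with an SE of 0.11 (edgeR adjusted p = 6.16e-06), and no library of one group reached the other. Tgif1 had 21.8, 28.5 and 23.0 CPM with PT cells, against 35.2, 43.5 and 37.7 CPM alone, again without overlap (-0.61 ± 0.14, edgeR adjusted p = 0.00479). Smad7 had 3.59, 3.13 and 3.23 CPM with PT cells, against 4.06, 6.88 and 4.74 CPM alone. Its groups did not overlap, and the difference did not pass (-0.59 ± 0.29, edgeR adjusted p = 0.147). Skil overlapped between groups and differed by 0.01 ± 0.16. Id3 and Smad6 were under the filter on low counts. Smad6 had 4 counts in all with PT cells, against 16 alone, a ratio of 0.293 once scaled to library size, with an exact 95% interval of 0.0713 to 0.909. For Id3 the 11 counts with PT cells and 20 alone gave a ratio of 0.645, with an interval of 0.279 to 1.41. These intervals cover counting error only.

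Of the 8 members tested in both macrophage comparisons, 4 rose and 2 fell in both, and 0 took opposite directions. Among the 10977 genes tested in both, 1203 (11.0%) were called in the same direction and 84 in opposite ones. The size of the response differed between the experiments for 4 of 10 members, 1 higher and 3 lower, by an interaction term over the 4 macrophage groups. Of all genes 10.9% passed there, 5.25% higher and 5.7% lower. On the log2 scale the response to EL cells was lower than that to PT cells for Tgfbi (-1.43 ± 0.27, edgeR adjusted p = 0.00502), Pmepa1 (-1.14 ± 0.25, 0.00864) and Klf10 (-0.59 ± 0.13, 0.0078). It was higher for Id2 (0.73 ± 0.15, edgeR adjusted p = 0.00518), which fell less with EL cells. In CPM the rise of Tgfbi was larger with EL cells, at 419 CPM, against 77.7 CPM with PT cells. Those of Pmepa1 (9.72 against 11.7 CPM) and Klf10 (16.1 against 69.9 CPM) were smaller with EL cells. The call for Pmepa1 was lost without mono-cultured replicate 1 (edgeR adjusted p = 0.0563) or co-cultured replicate 2 (0.0501) of the EL experiment. The macrophages alone already differed in level: Tgfbi averaged 96.6 ± 12.2 CPM in the EL experiment (SD, n = 2) and 6.15 ± 1.81 CPM in the PT experiment (n = 3). The partner cells, the experiment and the share of mitochondrial counts all differ between these groups and cannot be told apart.

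**Figure D2:**
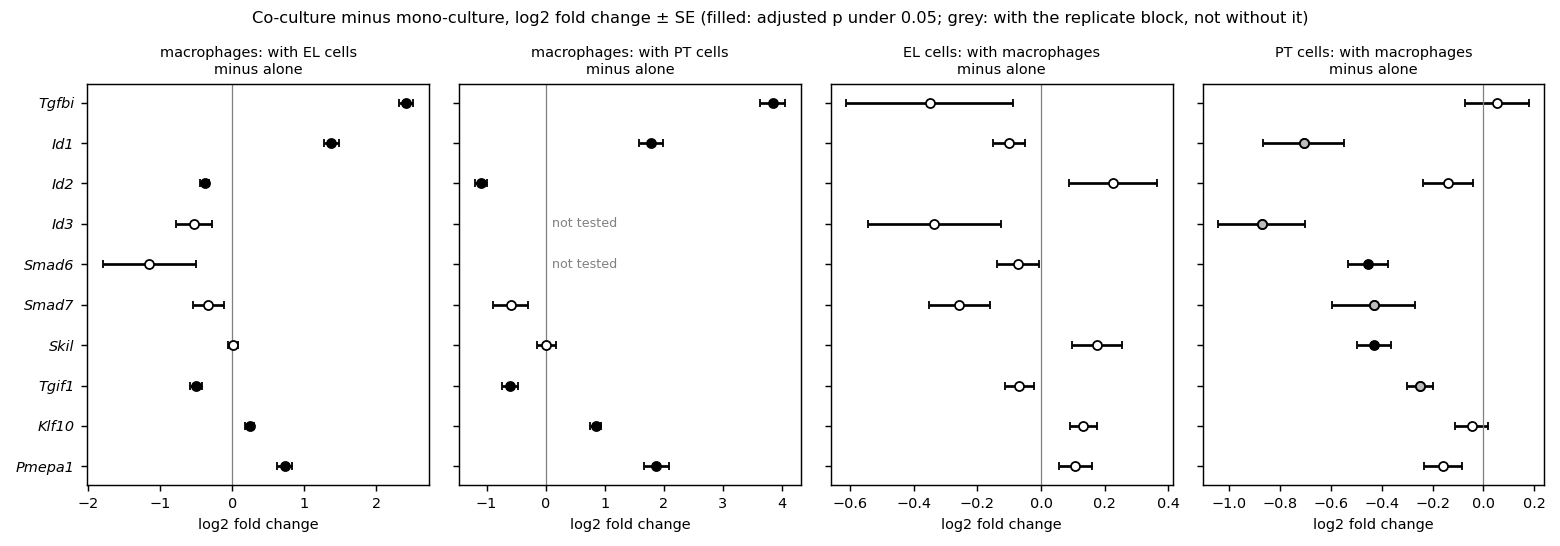
Log2 fold change of the tested members between co-culture and mono-culture in each of the 4 cell populations, with the standard error of the fit; the x axes differ between panels. Filled points passed an adjusted p of 0.05, grey points, drawn in the PT cell panel, passed with the replicate number as a block and not without it, and the open points did not pass without a block; Id3 and Smad6 were not tested in macrophages with PT cells. In macrophages Tgfbi, Id1, Klf10 and Pmepa1 lie above 0 and Id2 and Tgif1 below 0 with either partner, whereas 9 of 10 genes lie below 0 in PT cells.

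Transcripts of the partner cells can be carried over in a sort, so the partner's level of each rising gene is given here; its part in the rises was not tested. For Tgfbi the partner stood far below the macrophages, at 0.0565 of their level in EL cells and 0.154 in PT cells. The added level was 419 CPM with EL cells, whose own level was 29.1 CPM, and 77.7 CPM with PT cells, whose own level was 12.9 CPM. For Klf10 the partner stood at 0.752 and 0.343 of the macrophage level in the EL and PT experiments. For Id1 it stood at 0.757 and 0.874, and the rise amounted to 81.0% and 80.0% of the partner's level. Of the luminal marker genes, most gained far smaller shares. Krt8 and Krt18, keratins of luminal cells, gained 0.669% and 0.690% of their level in EL cells and 0.669% and 0.567% of that in PT cells.

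For Pmepa1, unlike the other 3, the partner stood above the macrophages. Its level in the partner was 28.8 times that of the macrophages with EL cells and 49.8 times that of the macrophages with PT cells. Its rise amounted to 1.38% of the level in EL cells and 1.44% of that in PT cells. The 9 luminal markers all had a higher mean in co-cultured macrophages in both experiments. Their sum was 214 to 246 CPM with EL cells, against 101 to 117 CPM alone, and 139 to 158 CPM with PT cells, against 32.2 to 39.6 CPM alone. The adhesion gene Epcam gained 0.874% and 0.822%, and the basal keratin Krt14 0.603% and 0.866%, of the level in EL and PT cells. Of the 5 basal markers, 5 had a higher mean in macrophages with EL cells than alone, and 3 in macrophages with PT cells. Krt19, another keratin, gained 13.5% and 71.2%, the cadherin gene Cdh1 12.1% and 0.843%, and the claudin gene Cldn4 0.680% and 8.71%. Krt19 made up most of the luminal sum in each macrophage group. It averaged 135 CPM with EL cells, against 75.2 CPM alone, and 117 CPM with PT cells, against 19.3 CPM alone. Cdh1 averaged 79.3 CPM with EL cells, against 31.1 CPM alone, and 12.7 CPM with PT cells, against 9.92 CPM alone. Erbb2, the gene of HER2, gained 0.726% and 1.48%, the second a share above that of Pmepa1 with PT cells.

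**Figure D3:**
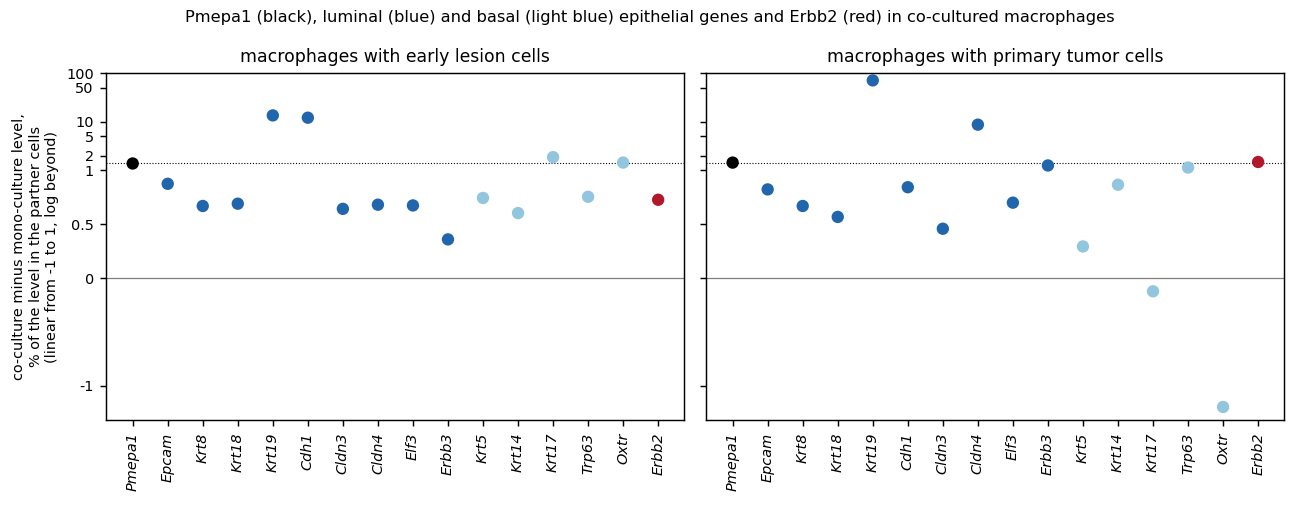
Rise of Pmepa1, of luminal and basal epithelial markers and of Erbb2 in co-cultured macrophages, as a percentage of each gene's level in the partner cells; the y axis is linear from -1 to 1 and logarithmic beyond, and the dotted line is at Pmepa1. Points are differences of group means (2 libraries each with EL cells, 3 each with PT cells). Pmepa1, at 1.38% and 1.44%, lies above Epcam, Krt8, Krt18, Cldn3, Elf3, Erbb3, Krt5, Krt14 and Trp63 in both panels and below Krt19. Erbb2 lies at 0.726% and 1.48%. Of the 5 basal markers, 5 had a higher mean with EL cells and 3 with PT cells than in macrophages alone.

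In EL cells co-culture with macrophages moved none of the members past the threshold. The count was 0 of 10 with edgeR, against 0.51% of all genes, and 0 with DESeq2, while 2 had an unadjusted p under 0.05. Smad7 had 29.3, 23.1 and 27.7 CPM with macrophages, against 32.6, 30.6 and 34.4 CPM alone (-0.26 ± 0.10, edgeR adjusted p = 0.284). Klf10 had 78.5, 74.7 and 75.4 CPM with macrophages, against 72.5, 72.6 and 67.6 CPM alone (0.13 ± 0.04, edgeR adjusted p = 0.228). In 5 members the groups did not overlap, Klf10 higher and Id1, Smad6, Smad7 and Tgif1 lower with macrophages, and this held for 20.7% of the genes tested. Co-cultured replicate 1 stood apart from its group for Tgfbi, at 42.4 CPM beside 23.4 and 21.6 CPM, against 41.1, 38.2 and 34.7 CPM alone. The same library had 23.4 CPM of Id3, beside 12.8 and 15.4 CPM, against 22.9, 21.8 and 21.9 CPM alone.

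Without that library Tgfbi (-0.72, edgeR adjusted p = 0.00139) and Id3 (-0.62, 0.00449) were lower and Skil (0.26, 0.0147) higher in co-cultured EL cells. Over all genes 719 were called higher and 893 lower, against 55 higher and 21 lower with it. Leaving out any other library of the 2 groups gave 0 to 18 genes higher and 0 to 8 lower, and no member passed. In co-cultured replicate 1 the sum over 8 fibroblast markers was 1987 CPM, beside 649 and 913 CPM in the other co-cultured libraries. EL cells alone had 1207, 622 and 1013 CPM, in the order of their replicate numbers. The part of these transcripts in the members' levels was not tested. The partner macrophages held 17.7 times the Tgfbi level of the EL cells, and the pan-macrophage markers summed to 5.97 to 18.7 CPM in co-cultured EL cells, against 4.09 to 9.49 CPM alone.

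In PT cells co-culture lowered the corepressor gene Skil and the inhibitory gene Smad6. These were 2 of 10 members, both lower, where 1.67% of all genes were called and 1.01% were lower. Skil had 147, 136 and 125 CPM with macrophages, against 191, 188 and 175 CPM alone. Each co-cultured library was below each control, and it fell by 0.43 on the log2 scale with an SE of 0.07 (edgeR adjusted p = 0.027). Smad6 had 8.20, 7.76 and 7.81 CPM with macrophages, against 10.9, 10.7 and 11.1 CPM alone. Replicates were tight within both groups, and it fell by 0.46 on the log2 scale with an SE of 0.08 (edgeR adjusted p = 0.0387). Both calls were lost, with falls of like size, when all 4 groups of the experiment were fitted together (Skil -0.44, edgeR adjusted p = 0.120; Smad6 -0.46, 0.215), a fit in which Id1 (0.0330) and Id3 (0.0400) passed instead. Both also rest on 3 libraries a group: leaving out any 1 library ended that of Smad6 (edgeR adjusted p 0.0654 to 0.186), and leaving out any 1 library except mono-cultured replicate 3 and co-cultured replicate 1 ended that of Skil (0.0579 to 0.164).

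PT libraries with the same replicate number deviated together, and with that number as a block 6 members passed, all lower, where 21% of all genes passed and 10.4% were lower. Beside Skil and Smad6 these were Id1, Id3, Smad7 and Tgif1. Id3 had 4.81, 3.22 and 3.22 CPM with macrophages, against 6.57, 6.47 and 7.71 CPM alone. Its groups did not overlap, so any pairing would put it lower with macrophages. The change was -0.87 ± 0.17 without the block (edgeR adjusted p = 0.0516) and -0.88 ± 0.14 with it (0.000452). Id1 had 14.9, 12.2 and 9.39 CPM with macrophages, against 22.1, 20.2 and 17.6 CPM alone. Replicate 1 was highest and replicate 3 lowest in both groups, and the edgeR adjusted p was 0.076 without the block (-0.71 ± 0.16) and 4.53e-06 with it (-0.72 ± 0.08). Tgif1 had 33.4, 31.7 and 31.2 CPM with macrophages, against 38.2, 37.8 and 39.2 CPM alone (-0.25 ± 0.05, edgeR adjusted p = 0.0568 without and 0.00488 with the block). Smad7 had 14.3, 15.1 and 15.7 CPM with macrophages, against 15.8, 20.3 and 25.1 CPM alone (-0.43 ± 0.16, edgeR adjusted p = 0.207 without and 0.00311 with the block). The spread of Smad7 lay mainly in the controls.

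**Figure D4:**
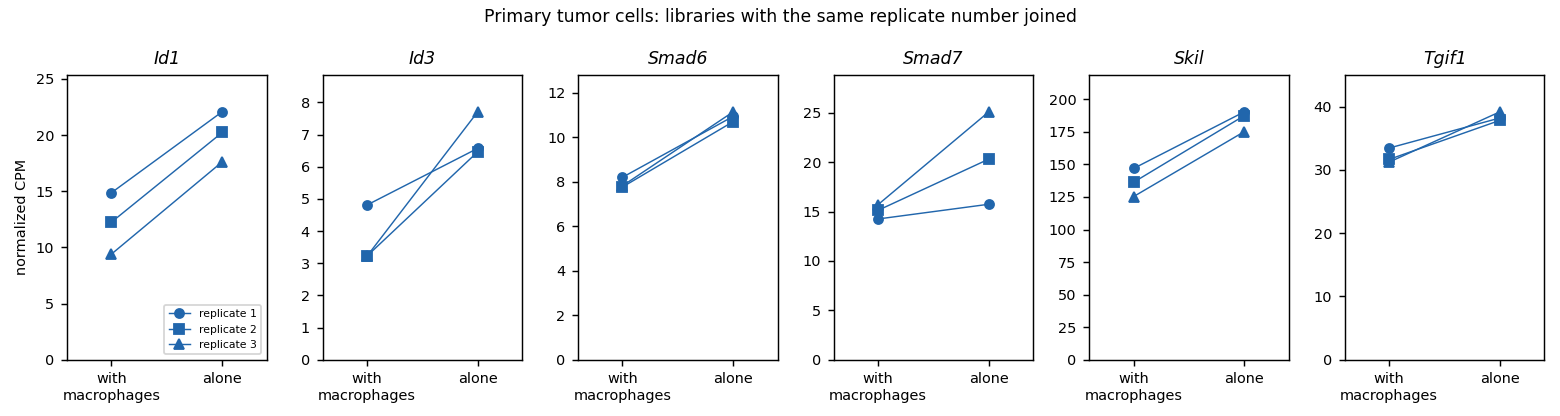
Level of 6 of the 10 genes in PT cells co-cultured with macrophages (left in each panel) and alone (right), in normalized CPM on axes that start at 0; lines join libraries with the same replicate number. All lines run from a lower point with macrophages to a higher point alone, as they would in any pairing, since the groups do not overlap. The smallest relative gap is that of Smad7 in replicate 1, at 14.3 CPM with macrophages and 15.8 CPM alone.

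The other 4 members showed less in PT cells. Pmepa1 had 795, 835 and 800 CPM with macrophages, against 984, 908 and 838 CPM alone, without overlap and without passing (-0.16 ± 0.07, edgeR adjusted p = 0.276). Counting Pmepa1, 7 members were lower in every co-cultured library than in any control, where this held for 13.5% of the genes tested. Tgfbi had 12.8, 11.3 and 14.6 CPM with macrophages, against 12.3, 11.0 and 14.3 CPM alone, with groups that overlapped throughout. Id2 (-0.14 ± 0.10) and Klf10 (-0.05 ± 0.07) also overlapped. The median log2 fold change of the 10 genes was -0.34, beside 0.00 over all genes tested. Macrophages held less of the falling genes than PT cells did, at 0.0268 of the PT level for Smad6, 0.151 for Id3, 0.220 for Smad7, 0.507 for Skil and 0.761 for Tgif1, except Id1, at 1.14. The pan-macrophage markers summed to 5.12 to 6.54 CPM in co-cultured PT cells, against 3.93 to 5.46 CPM alone, and to 4234 CPM or more in the macrophages. Fibroblast markers summed to 243 to 271 CPM with macrophages, against 190 to 335 CPM alone.

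Whether EL and PT cells responded differently was asked with an interaction term, and 0 of 10 members passed with edgeR, against 0.137% of all genes. Unadjusted p-values under 0.05 numbered 6. The lowest adjusted p was that of Skil, at 0.0598, with a response in EL cells above that in PT cells by 0.60 ± 0.11. DESeq2 called 3 members (Id1, Smad6 and Skil), and edgeR with the replicate block 3 (Id1, Id2 and Skil), all with the response in EL cells above that in PT cells. These settings also called more genes in all. Of the 15284 genes tested, DESeq2 called 204 higher and 127 lower, and edgeR with the block 529 higher and 600 lower. For Skil the values were 0.60 with either, at an adjusted p of 0.000114 with DESeq2 and 0.000735 with the block.

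Between the stages, PT cells alone and EL cells alone differed in 8 of 10 members, where 68.5% of all genes did, 33.8% being higher and 34.7% lower in PT cells. Id2 (0.75 ± 0.12) and Pmepa1 (0.47 ± 0.07) were higher in PT cells. Lower in PT cells were Id3 (-1.66 ± 0.08), Tgfbi (-1.58 ± 0.10), Smad7 (-0.65 ± 0.16), Tgif1 (-0.60 ± 0.04), Id1 (-0.46 ± 0.08) and Klf10 (-0.24 ± 0.05). Skil (-0.13 ± 0.05, edgeR adjusted p = 0.0559) and Smad6 (0.07 ± 0.07) did not pass. Stage and experiment cannot be told apart here.

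The ligands, receptors and transducers upstream of these genes were tested in mammary cells as well. In EL cells, where 0.51% of all genes were called, none passed of the 8 TGF-beta ligands and receptors, 11 BMP ligands, receptors and antagonists, 9 SMAD transducers and degraders and 13 other SMAD targets that were tested. In PT cells the TGF-beta type I receptor gene Tgfbr1 fell to 28.9 ± 0.926 CPM with macrophages, against 37.9 ± 2.82 CPM alone (SD, n = 3 each; -0.39 ± 0.07, edgeR adjusted p = 0.0393). The BMP type II receptor gene Bmpr2 fell to 118 ± 1.63 CPM with macrophages, against 150 ± 4.74 CPM alone (-0.33 ± 0.05, edgeR adjusted p = 0.028). Both calls rest on 3 libraries a group. Without mono-cultured replicate 2, or without co-cultured replicate 2, 0 of all genes were called lower, so neither passed there. No other gene of the lists passed in PT cells, where 1.67% of all genes did. With the replicate block, where 21% of all genes passed, 4 TGF-beta genes were higher and 1 lower of 8, 1 BMP gene higher and 3 lower of 10, 0 transducers higher and 1 lower of 9, and 3 other targets higher and 2 lower of 13.

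In macrophages with EL cells 8 of 12 other SMAD targets rose and 0 fell, with a median log2 fold change of 0.82 beside 0.00 over all genes tested, of which 9.11% were called higher and 9.19% lower. Cdkn1a, the gene of the cell cycle inhibitor p21, stood at 60.3 ± 4.53 CPM with EL cells, against 28.3 ± 3.42 CPM alone (SD, n = 2 each; 1.09 ± 0.09, edgeR adjusted p = 2.27e-05). Thrombospondin 1, encoded by Thbs1, which can activate latent TGF-beta, stood at 13.0 ± 2.53 CPM, against 1.09 ± 0.33 CPM alone (3.53 ± 0.21). The connective tissue growth factor gene Ctgf stood at 0.787 ± 0.403 CPM, against 0.0366 ± 0.00978 CPM alone (4.29 ± 0.71). In the EL partner these genes were at 1.24 times the macrophage level for Cdkn1a, 9.23 times for Thbs1 and 119 times for Ctgf. Cyr61 and Postn, also among the 8, gained 1.04% and 0.616% of their partner level. Shares of the other called targets, apart from Ctgf, ran from 5.71% to 265%. The part of partner transcripts in these rises was not tested. The rise of Ctgf was 0.801% of its partner level, a share near those of Krt8 and Epcam above, and that of Thbs1 9.92%. With PT cells neither was called: Thbs1 stood at 31.2 ± 9.75 CPM, against 35.8 ± 5.57 CPM alone, and Ctgf at 8.75 ± 2.08 CPM, against 8.34 ± 2.46 CPM alone (SD, n = 3 each). By the interaction term the response to EL cells was above that to PT cells for Thbs1 (3.67 ± 0.37, edgeR adjusted p = 0.000122) and Ctgf (4.08 ± 0.75, 0.00302). Macrophages alone already differed between the experiments in both genes, and Ctgf had 73 counts in all with EL cells, against 3 alone. The partner cells, the experiment and the share of mitochondrial counts differ between these groups and cannot be told apart.

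In macrophages with PT cells 5 of 10 other targets rose and 0 fell, where 15.8% of all genes were called higher and 14.8% lower. Cdkn1a stood at 46.4 ± 4.07 CPM with PT cells, against 22.6 ± 0.537 CPM alone (SD, n = 3 each; 1.10 ± 0.12, edgeR adjusted p = 1.64e-05). Fibronectin, encoded by Fn1, stood at 223 ± 67.1 CPM, against 32.2 ± 2.23 CPM alone (2.86 ± 0.25). Ltbp2, a latent TGF-beta binding protein family gene, stood at 5.40 ± 0.714 CPM, against 2.27 ± 0.102 CPM alone (1.31 ± 0.30). The PT partner held 1.67 times the macrophage level of Cdkn1a, 2.43 times that of Fn1 and 35.1 times that of Ltbp2. How much of these rises moved with partner transcripts was not tested.

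Among the ligands and receptors in macrophages, Tgfb3 was called higher with either partner (3.86 ± 0.45 with EL cells, 3.39 ± 0.64 with PT cells). Its level was 1.51 CPM with EL cells, against 0.103 CPM alone, and 3.63 CPM with PT cells, against 0.334 CPM alone, while the partners held 214 CPM in EL and 447 CPM in PT cells. The rise was 0.656% and 0.738% of those levels, again near the shares of Krt8. The part of partner transcripts in the rise of Tgfb3 was not tested. The receptor gene Acvrl1 rose with EL cells to 21.0 ± 0.283 CPM, against 14.6 ± 0.34 CPM alone (0.51 ± 0.08, edgeR adjusted p = 0.00117), which makes 2 TGF-beta genes of 7 tested there and 1 of 6 with PT cells. BMP receptor genes gave 1 fall in each comparison, Bmpr1a with EL cells (-0.41 ± 0.11, of 5 tested) and Acvr1 with PT cells (-0.68 ± 0.21, of 3 tested). Smurf1, whose product marks SMADs and receptors for degradation, fell with either partner (-0.32 ± 0.07 with EL cells, -0.65 ± 0.12 with PT cells). The corepressor gene Ski rose with either (0.26 ± 0.07 and 0.40 ± 0.09), unlike its relative Skil, whose values are given above. Of 8 transducers and degraders tested, 1 was higher and 1 lower with EL cells, and 2 were higher and 1 lower with PT cells, where the 1 not yet named was the BMP transducer gene Smad1 (0.34 ± 0.12). Beside the counts of these 3 lists, 18.3% of all genes tested were called with EL cells and 30.6% with PT cells.

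Over the 8 group means the genes whose level was most like that of Tgfbi were the interleukin-4 receptor gene Il4ra (Pearson r = 0.978), the adhesion gene Mcam (0.968) and the semaphorin gene Sema6d (0.958). All 3 were highest, like Tgfbi, in macrophages with EL cells, at 327 CPM for Il4ra, 80.7 for Mcam and 29.0 for Sema6d. For Id1 they were the cholesterol exporter gene Abca1 (0.978), the ectonucleotidase gene Nt5e (0.954) and Zfp780b (0.952). For Smad7 they were the kinase genes Map4k3 (0.995) and Mast4 (0.995) and the basement membrane gene Frem2 (0.995). These correlations describe 8 points that share cell type and experiment, among 10188 genes with at least 10 CPM in their highest group. Within the 10 genes, Smad6, Smad7, Skil and Pmepa1 had correlations of 0.890 to 0.976 with each other, and Id3 had 0.836 to 0.931 with them. Tgfbi had -0.577 with Smad7.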

How the data were processed

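RNA of 22 libraries was measured by bulk sequencing, after oligo-dT selection per the labels' protocols. The authors deposited raw read counts per gene symbol, 1 table for the EL and 1 for the PT experiment. The submitters' processing notes name bcl2fastq 2.17 and the build mm10; the sources used here give neither aligner, counter and annotation nor the strand setting. Of the symbols, 27 read as dates in the deposited tables and were left as they stood, and 31374 were found in GENCODE M21.

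Groups came from the labels. Each of 9 comparisons was fitted to the counts of its own groups with edgeR 4.0.16 in R 4.3.3 (filterByExpr, TMM, two-sided robust quasi-likelihood F test), p-values adjusted by the Benjamini-Hochberg method across the genes of each comparison, threshold 0.05; interactions used 4 groups. The SE is the log2 fold change divided by the square root of F. Levels are TMM-normalized CPM over all libraries. Their log2 ratios differ from the fitted changes by up to 0.08 in the 4 co-culture comparisons and up to 0.18 between cell types. No 2 libraries of a group agreed within sampling noise (lowest chi-square per degree of freedom 6.90). The code was tested on simulated data.

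The members, lists and tests were chosen with earlier results of these data known. Named were all members, up to 3 passing genes per list and comparison with the smallest adjusted p, and for Tgfbi, Id1 and Smad7 the 3 genes with the highest r of log2(mean CPM + 1) over group means. Postn was named besides, for its share of the partner level.

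Residuals of PT libraries with the same replicate number, after removal of group means, correlated at 0.589, 0.469 and 0.599, all above 0.1, so the numbers were taken to pair co-cultured with mono-cultured PT cells; the labels give no pairing. Other settings were RLE normalization, no filter on low counts, DESeq2 1.42.0, dispersion without robust estimation, fits that leave out Grip2 and the genes of the mitochondrial genome, a joint fit of the 4 groups in an experiment, the replicate number as a block, and leaving out each library. A crossed block was added after seeing the data. Smad7 and Tgif1 sequences are not shown here.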

Additional observations from a re-analysis of the deposited data

Results flagged for a closer look

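The response of macrophages to EL cells differed from that to PT cells, by the interaction term over the 4 macrophage groups, in 4 genes. The difference was -1.43 for Tgfbi, which rose by 2.41 with EL cells and by 3.85 with PT cells. For Pmepa1 it was -1.14, with rises of 0.73 with EL cells and 1.88 with PT cells. For Klf10 it was -0.59, with rises of 0.24 and 0.85. For Id2 it was 0.73, with changes of -0.38 with EL cells and -1.09 with PT cells. All are log2 values. Mono-cultured macrophages of the 2 experiments differed in level for Tgfbi and Pmepa1, as given under the other observations, and the part of that difference was not tested.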

How the results depend on the processing

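In EL cells 0 members passed, 1 with the replicate block (Id2) and 0 to 3 when 1 library was left out. In PT cells 2 passed, 2 others (Id1 and Id3) with all 4 groups, 5 with DESeq2, 6 with the replicate block and 0 to 2 when 1 library was left out. For the interaction of EL and PT cells 0 passed, 1 without the filter (Skil), 3 with DESeq2, 3 with the replicate block and 0 to 2 when 1 library was left out. The counts of members in the other comparisons kept within 1.5 times of theirs in every setting run. Changes of direction were seen in values that did not pass. Skil in macrophages with PT cells was -0.0059 without the filter, -0.0029 without mitochondrially encoded genes and Grip2, -0.0016 with the block, -0.020 with all 4 groups and -0.18 to 0.14 when 1 library was left out. Tgif1 in macrophages alone minus PT cells alone was -0.016 without the filter. With 1 library left out, the ranges were -0.052 to 0.16 for Tgfbi in PT cells, -0.029 to 0.045 for Skil in macrophages with EL cells, -0.0032 to 0.34 for Smad7 in the EL and PT cell interaction, and -0.13 to 0.17 for Id3, -0.13 to 1.69 for Smad6 (0.55 ± 1.22 with all) and -0.12 to 0.21 for Skil in that of macrophages. Over all genes, calls higher and lower numbered 55 and 21 in EL cells, 110 and 64 without the filter, 293 and 213 with DESeq2, 303 and 182 with the block and 96 and 50 with all 4 groups. In PT cells they numbered 89 and 136, 192 and 274 without the filter and 352 and 416 with DESeq2. With the block they were 1430 and 1411 in PT cells, and without replicate 2 of either group 4 and 0. In their interaction they numbered 15 and 6, 28 and 7 without the filter, 204 and 127 with DESeq2 and 529 and 600 with the block. For macrophages with EL cells numbers ran against each other (r = -0.191): 1279 and 1289 genes were called, 1118 and 1004 with the block and 2181 and 2251 with a crossed block chosen after seeing the data. EL libraries of the same number correlated at 0.427, 0.432 and 0.0839, under the limit of 0.1 for 1, and macrophages with PT cells at -0.098 to -0.0136, so no pairing was taken. Depth limits Id3 and Smad6 in macrophages with PT cells, at 11 and 4 counts in all.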

Other observations

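Macrophages alone came from both experiments, and some members stood at different levels in them before any co-culture. Tgfbi averaged 96.6 ± 12.2 CPM in the EL experiment (SD, n = 2) and 6.15 ± 1.81 CPM in the PT experiment (n = 3). Pmepa1 averaged 14.8 ± 1.37 CPM in the EL and 4.61 ± 0.317 CPM in the PT experiment, and Id1 13.0 ± 2.10 CPM in the EL and 4.18 ± 0.341 CPM in the PT experiment. The helix-loop-helix inhibitor gene Id2 stood at 121 ± 6.61 CPM in the EL and 117 ± 9.06 CPM in the PT experiment, and its groups overlapped. Co-culture with PT cells took Tgfbi to 83.8 ± 14.5 CPM, a level that overlapped that of macrophages alone in the EL experiment. No comparison between the experiments' macrophages was fitted.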
